A study of Mus musculus with 18 samples.

Results

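In E14 mouse embryonic stem cells, 1748 of the 246266 complete 10 kb bins of chromosomes 1 to 19 (0.710%) still stood out in H3K27me3 reads after 7 days of an EZH2 inhibitor. They were selected on measured values. A bin was a member when its mean H3K27me3 level reached 4 times the library's own autosomal mean in both inhibitor libraries and stayed under 4 times that mean for H3K27me1 and H3K36me2 in every untreated library. The last 2 conditions removed 103 of the 1851 bins that met the first. All levels below that are called relative are linear levels divided by the library's autosomal mean, so that 1 is the average bin of that library. The high H3K27me3 level after the inhibitor is therefore the rule itself, is given as a description, and carries no test.

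H3K27me3, trimethylation of lysine 27 of histone H3, is placed by Polycomb repressive complex 2 (PRC2), whose main catalytic subunit is EZH2. PRC2 is recruited to CpG-rich promoters, where it places H3K27me3, and its subunit EED binds the mark and stimulates further methylation nearby. In embryonic stem cells the mark is known for covering the promoters of genes that direct development, which are held silent there. H3K36me2 and H3K36me3, on lysine 36 of the same histone tail, hinder PRC2 and mark other parts of the genome, H3K36me3 being laid down along the bodies of transcribed genes.

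The cells, a pluripotent line of 1 origin with no engineered allele in the labels, were kept in 2i/LIF medium, whose MEK and GSK3 inhibitors and cytokine LIF keep them undifferentiated, with arginine and lysine of light, medium or heavy isotopes. Untreated cells gave 2 libraries each for H3K27me1, H3K27me2, H3K27me3, H3K36me2 and H3K36me3, without spike-in. Cells given 10 µM EPZ6438 or an equal volume of DMSO for 7 days gave 2 libraries each for H3K27me3 and H3K36me2, with Drosophila S2 chromatin added at 0.05%. The labels do not say whether replicates were separate cultures, so spreads and p-values may be technical. All 10 embryonic stem cell marker genes carried untreated H3K36me3 over their bodies at or above the autosomal mean in both libraries (1.08 to 7.13 times it), against 3 of 6 fibroblast, 3 of 4 neural, 0 of 4 endoderm and liver and 1 of 3 blood genes. Reads counted over windows were 22.6 to 66.4 M (units of 1000000) per untreated library, 21.3 and 27.5 M for H3K27me3 after DMSO and 49.7 to 110 M for treated H3K36me2. The 2 H3K27me3 inhibitor libraries held only 0.976 and 1.75 M, so the 4-fold threshold stood at 15.8 and 28.4 reads per bin. These are bulk measurements, in which a mark on fewer cells or alleles and less of the mark on each cannot be told apart.

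The 4 promoters first shown belong to the members highest after the inhibitor among those with a protein-coding start on record: Uncx, Nkx1-1 and Skor1, which encode factors of embryonic patterning and neural development, and Grb10, an imprinted growth regulator. The last 2, Hoxa11 (a homeobox patterning gene) and Jag2 (a Notch ligand), had the highest H3K27me3 after DMSO among starts of genes with no member bin. Each run is the 250 bases before the gene start in RefSeq (GRCm38.p6, whose chromosome lengths equal those of the tracks), with every CG dinucleotide in capitals, since CpG-rich sequence is where PRC2 is recruited.

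Uncx, chr5:139543648-139543897, plus strand: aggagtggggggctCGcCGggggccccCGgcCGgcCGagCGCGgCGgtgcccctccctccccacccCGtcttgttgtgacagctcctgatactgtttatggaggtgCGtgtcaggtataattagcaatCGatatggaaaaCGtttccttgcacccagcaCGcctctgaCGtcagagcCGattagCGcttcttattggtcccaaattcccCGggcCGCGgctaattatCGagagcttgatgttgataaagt
Nkx1-1, chr5:33434091-33434340, minus strand: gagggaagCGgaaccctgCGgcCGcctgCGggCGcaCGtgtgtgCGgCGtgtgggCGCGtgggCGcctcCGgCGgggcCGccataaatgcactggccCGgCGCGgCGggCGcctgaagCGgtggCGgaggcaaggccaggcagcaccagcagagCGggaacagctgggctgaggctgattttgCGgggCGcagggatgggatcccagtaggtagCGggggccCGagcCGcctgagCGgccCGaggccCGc
Skor1, chr9:63148962-63149211, minus strand: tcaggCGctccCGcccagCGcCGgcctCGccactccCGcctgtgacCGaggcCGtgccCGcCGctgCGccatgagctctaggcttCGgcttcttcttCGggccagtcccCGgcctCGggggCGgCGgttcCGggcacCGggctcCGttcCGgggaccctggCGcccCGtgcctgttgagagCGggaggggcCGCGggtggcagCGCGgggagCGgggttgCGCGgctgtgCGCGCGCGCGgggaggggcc
Grb10, chr11:12037421-12037670, minus strand: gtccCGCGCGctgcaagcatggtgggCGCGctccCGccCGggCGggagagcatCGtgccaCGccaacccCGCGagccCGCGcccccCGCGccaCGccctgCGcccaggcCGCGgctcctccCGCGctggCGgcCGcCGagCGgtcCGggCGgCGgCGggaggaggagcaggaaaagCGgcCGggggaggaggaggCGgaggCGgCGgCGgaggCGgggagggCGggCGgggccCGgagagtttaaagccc
Hoxa11, chr6:52245811-52246060, minus strand: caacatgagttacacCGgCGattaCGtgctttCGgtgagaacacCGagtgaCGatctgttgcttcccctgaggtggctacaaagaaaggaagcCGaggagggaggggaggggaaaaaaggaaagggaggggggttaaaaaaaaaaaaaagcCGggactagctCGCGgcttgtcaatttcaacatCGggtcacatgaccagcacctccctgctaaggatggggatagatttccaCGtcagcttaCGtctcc
Jag2, chr12:112929496-112929745, minus strand: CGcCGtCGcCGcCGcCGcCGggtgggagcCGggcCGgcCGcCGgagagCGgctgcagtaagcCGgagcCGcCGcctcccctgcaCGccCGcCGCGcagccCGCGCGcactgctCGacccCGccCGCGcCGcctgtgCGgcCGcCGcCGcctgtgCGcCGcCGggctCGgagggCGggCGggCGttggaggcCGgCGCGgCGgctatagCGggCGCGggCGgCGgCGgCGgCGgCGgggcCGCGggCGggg

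These windows held 20 CG in Uncx, 30 in Nkx1-1, 36 in Skor1 and 40 in Grb10, and 13 in Hoxa11 and 54 in Jag2. Of all 31396 autosomal promoters in the table, 18.4% had at least as many CG as Uncx, 6.13% as Nkx1-1, 2.66% as Skor1 and 1.34% as Grb10. The share was 32.1% for Hoxa11 and 0.0159% for Jag2, so the promoter densest in CG of the 6 was not in a member. CG was counted once for both strands, as it reads the same on each.

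Across the members, H3K27me3 was already high without the inhibitor. Median relative H3K27me3 was 6.80 and 6.96 in the untreated libraries and 8.33 and 8.46 after DMSO, against 0.513 ± 0.0422 and 0.521 ± 0.00120 over all bins (mean ± SD of the library medians, n = 2). After the inhibitor the members' medians were 7.07 and 8.61. Of the 1748, 1517 (86.8%) were at or above 4 in all 4 untreated and DMSO libraries, 130 in only some, and 101 in none. Of autosomal H3K27me3 reads the members held 4.89% ± 0.101 in untreated cells and 6.09% ± 0.0786 after DMSO. After the inhibitor they held 8.99% ± 1.84 (SD, n = 2 in each group). For untreated H3K27me2, the intermediate methylation state, their medians of 0.878 and 0.90 lay close to the 0.904 ± 0.0515 over all bins (SD, n = 2). Choosing bins without inhibitor library 2 moved the members' mean of library medians from 0.889 to 1.38 for H3K27me2 and from 8.40 to 5.43 for H3K27me3 after DMSO.

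**Figure D1:**
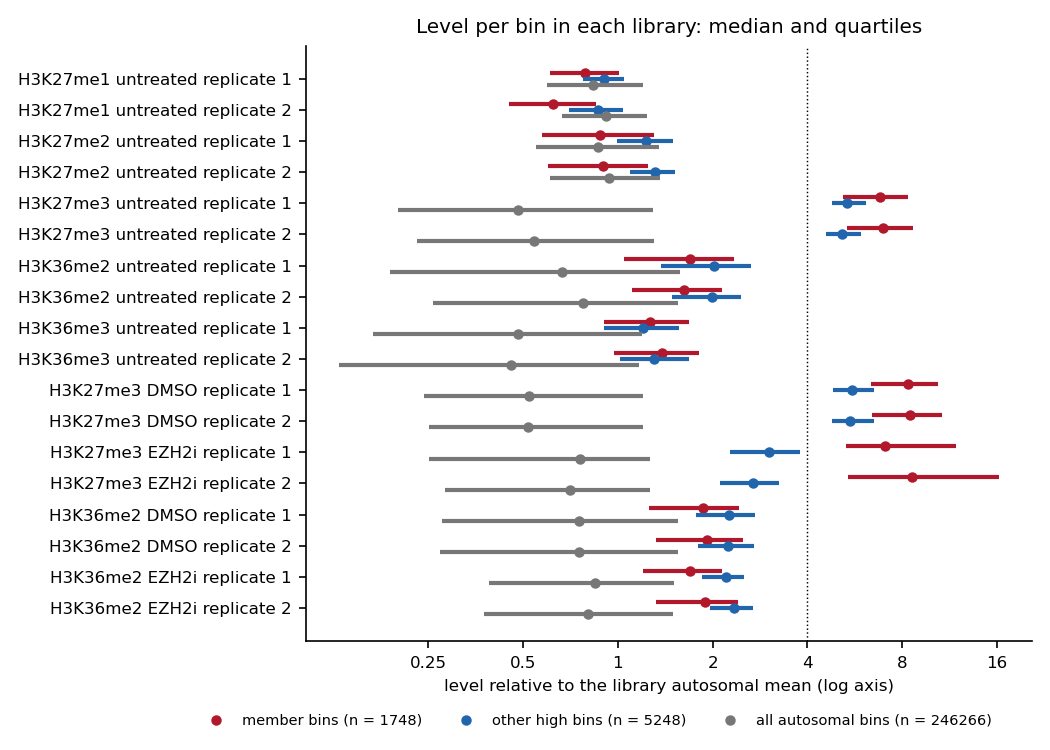
Relative level per bin in each of the 18 libraries (log axis, 1 is the library's autosomal mean); points are medians over bins and bars the interquartile range, for members, other high bins and all autosomal bins, and the dotted line is the threshold of 4. The members lie near 7 to 9 in all 6 H3K27me3 libraries, while the other high bins lie near 5 in untreated and DMSO libraries and near 3 after the inhibitor.

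Keeping reads relative to the rest of the genome is not keeping the mark. On the deposited scale, taken to be the spike-in scale, the autosomal mean of H3K27me3 was 535-fold lower after the inhibitor than after DMSO (44.4 against 0.0830 units, means of 2 libraries). The members as a whole were 370-fold lower (381 against 1.03 units), and the median member was 495-fold lower, with a range from 14.6-fold to 1556-fold. Only 42 members (2.40%) were less than 100-fold lower. The 14.6-fold was the Trak1 bin, which had little to lose, at 0.197 and 0.143 times the mean after DMSO. Of the 1517 members high in all 4 untreated and DMSO libraries, 14 (0.923%) were less than 100-fold lower, the lowest being 55.9-fold. The natural comparison is the 5248 other bins that were at or above 4 in all 4 untreated and DMSO H3K27me3 libraries and passed the same H3K27me1 and H3K36me2 limits, here called other high bins. Of these, 1176 (22.4%) reached 4 in inhibitor library 1 and 414 (7.89%) in library 2, but by the rule none did in both. As a whole the other high bins were 1057-fold lower (258 against 0.244 units), and 0 of them were less than 100-fold lower. Since the inhibitor level chose which high bins were members, this gap is a description.

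How high a bin was after DMSO went with whether it was a member. Among bins that passed the limits on the other 2 marks, members were 0.0128% of those under 1 after DMSO, 0.0532% of those from 1 to 2 and 0.334% of those from 2 to 4. The share was 4.17% from 4 to 6, 21.7% from 6 to 8, 58.1% from 8 to 10 and 87.2% from 10 to 12. From 12 to 15 it was 97.8% (176 of 180 bins), and all 65 bins at 15 or more were members. The median relative level after the inhibitor went over these bands from 0.464 in the lowest to 2.56 at 4 to 6, 9.99 at 10 to 12 and 41.8 at 15 or more, so it lay below the DMSO level in the middle bands and above it at the top. Bin by bin, the relative levels of the inhibitor pair exceeded those of the DMSO pair without overlap in 754 members (43.1%) and fell short of them without overlap in 574 (32.8%), against 26.9% and 30.5% of all bins; the rule used the inhibitor levels, so nothing is read from the difference.

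**Figure D2:**
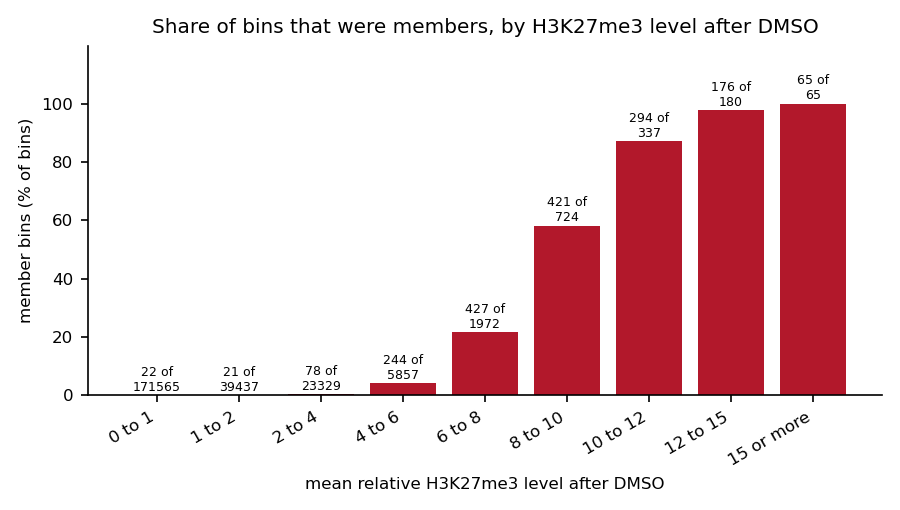
Percent of bins that were members (bars from 0), by mean relative H3K27me3 after DMSO in 9 bands, with members and bins written above each bar. The share climbs from 4.17% at a level of 4 to 6 to 58.1% at 8 to 10 and 100% at 15 or more.

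Since the inhibitor libraries were shallow, each was read against the other. Of the 4670 bins that inhibitor library 1 alone would have chosen, 37.4% reached 4 in library 2, against 1.20% of all bins. Of the 2729 that library 2 alone would have chosen, 64.1% reached 4 in library 1, against 2.06% of all bins. The share went up with the level: bins at 4 to 6 in library 1 reached 4 in library 2 in 18.2% of cases, those at 6 to 8 in 70.1%, those at 8 to 12 in 97.8%, while all 229 at 12 to 20 and all 191 above that did. Just inside the threshold, the Irf4 bin had 4.04 and 4.80, the Scn8a bin 4.04 and 6.07 and the Gm31762 bin 4.04 and 4.51. Just outside, the Cbfa2t3 bin had 5.05 and 3.95, the Poc1a bin 4.29 and 3.95 and the Por bin 6.06 and 3.95.

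Among members, the 10 bins highest after the inhibitor each overlapped 1 protein-coding gene. Of all bins 2 had a higher mean after the inhibitor, reaching 519.8 and 883 times the library mean in inhibitor libraries 1 and 2, and the limits on the other marks had removed both. Uncx, a homeobox factor of somite and neural patterning (chr5:139540001-139550000), had 151 and 335 times the mean after the inhibitor, from 597 and 2371 reads. Its level was 22.4 and 25.8 after DMSO and 14.3 and 15.0 in untreated cells. The 3 groups did not overlap, and on the deposited scale the bin was 55.9-fold lower after the inhibitor.

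Nkx1-1, a homeobox gene (chr5:33430001-33440000), had 162 and 315 after the inhibitor, 23.3 and 24.5 after DMSO and 15.6 and 15.4 untreated. Hmx1, a homeobox factor of sensory organ development (chr5:35390001-35400000), had 108 and 207, 24.0 and 25.9, and 16.3 and 16.2 in the same order. Skor1, a transcriptional corepressor of the nervous system (chr9:63140001-63150000), had 126 and 166, 21.7 and 20.6, and 16.2 and 15.5. In each of these bins the order was untreated below DMSO below inhibitor.

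Kcnk9 (a potassium channel gene, chr15:72540001-72550000, within the gene, with no recorded start in the bin) and Grb10 (chr11:12030001-12040000) began lower. Kcnk9 had 96.4 and 142 after the inhibitor, 12.6 and 12.1 after DMSO and 7.57 and 8.41 untreated. Grb10 had 81.5 and 141, 11.8 and 12.6, and 8.66 and 9.80. Both genes are imprinted, that is, expressed from 1 parental copy, in some tissues.

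The remaining 4 were Neurod2, a neuronal differentiation factor (chr11:98320001-98330000), Tbx1, a T-box factor of heart and pharyngeal development (chr16:18580001-18590000), Olig2, which specifies motor neurons and oligodendrocytes (chr16:91220001-91230000), and Lhx1, a LIM homeobox factor of kidney and head development (chr11:84520001-84530000). After the inhibitor Neurod2 had 77.3 and 142, Tbx1 74.0 and 146, Olig2 75.0 and 115, and Lhx1 62.1 and 118. The level was higher in inhibitor library 2 than in library 1 in all 10 bins. Tbx1 had the highest DMSO level of all members, 28.5 and 28.4. The Gp1bb bin near it (chr16:18620001-18630000) was also among the 5 highest after DMSO at 21.8 and 24.0, but had 22.7 and 48.0 after the inhibitor and was 365-fold lower on the deposited scale, against 146-fold for Tbx1.

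**Figure D3:**
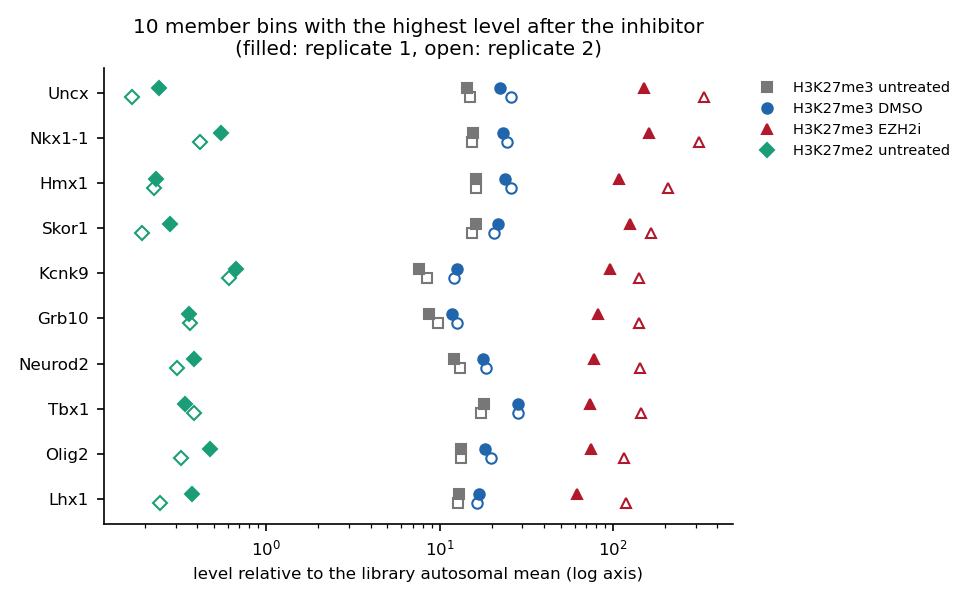
Relative level (log axis) in the 10 members with the highest mean after the inhibitor, for H3K27me3 in untreated, DMSO and inhibitor libraries and for untreated H3K27me2 (filled symbols replicate 1, open symbols replicate 2). In every bin the 2 inhibitor values lie above the DMSO values, and H3K27me2 lies below 1.

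Over the members as a whole, the remaining reads were more concentrated within the bin. In each bin the 1 kb window with the most untreated H3K27me3 was taken, so that its place did not depend on the treated libraries. Reads were pooled over the bins of a set, so bins with the most reads weigh most in these shares. In members this window held 18.7% and 18.0% of the pooled reads untreated, 21.1% and 19.9% after DMSO, and 31.3% and 32.3% after the inhibitor, where an even spread would give 10%. In other high bins the shares were 16.3% and 16.1%, 17.4% and 17.05%, and 16.2% and 16.8%. The mean relative level of the members' window was 17.9 and 17.3 after DMSO and 34.0 and 46.9 after the inhibitor, while 5 kb to its left it was 5.50 and 5.82 against 4.87 and 6.51. The narrowing was seen in both inhibitor libraries but was slight in the 437 members lowest after the inhibitor, where the window held 19.7% and 18.995% after DMSO and 21.4% and 23.1% after the inhibitor. Both inhibitor libraries chose the members, by a bin mean that a single high window can raise. The narrowing and the contrast with other high bins are therefore a description.

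In 729 members with a protein-coding start, the window lay at a median of 0.829 kb from the nearest such start, and in 420 of them (57.6%) within 1 kb. The window was placed by untreated H3K27me3 and no distance was taken in other bins, so closeness to starts is not shown to be particular to members. In the Olig2 bin the window held 15.8% and 15.4% of the bin's H3K27me3 reads after DMSO but 33.3% and 34.0% after the inhibitor. In the Kcnk9 bin the shares were 25.3% and 22.4%, then 38.5% and 39.4%. Others of the 10 highest members moved less: Tbx1 had 13.1% and 13.3%, then 14.0% and 15.5%, and Lhx1 11.6% and 11.4%, then 15.4% and 12.1%. The DMSO and inhibitor shares overlapped for Grb10, with 26.3% and 24.5%, then 29.4% and 25.7%, and for Skor1, with 13.7% and 12.9%, then 13.3% and 15.2%. Hmx1 went the other way, from 9.58% and 10.6% to 6.53% and 5.33%.

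**Figure D4:**
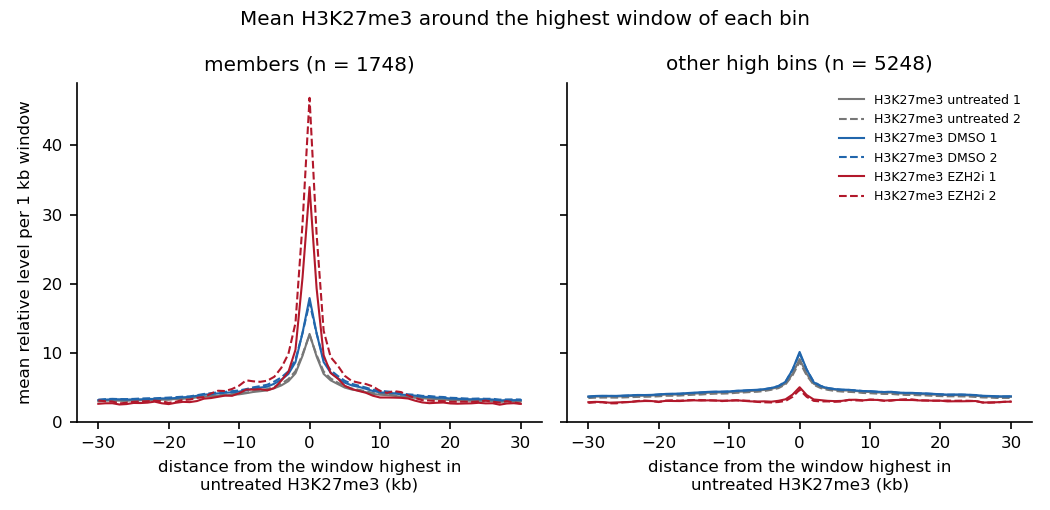
Mean relative H3K27me3 per 1 kb window within 30 kb of the window highest in untreated cells, in members (left) and other high bins (right), with 1 line per library. In members the central value is 34.0 and 46.9 after the inhibitor and about 17 to 18 after DMSO, and the flanks nearly coincide; in other high bins the inhibitor lines lie below the others throughout.

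Members were rich in gene starts. A recorded start fell in 841 members (48.1%), against 24.1% of other high bins and 9.80% of all bins, and a protein-coding start in 41.7%, 16.9% and 6.63%. A further 41.4% of members lay inside a protein-coding gene without its start, and 110 (6.29%) overlapped no gene. Gene promoters in members held a median of 18 CG in the 300 bases around the start, against 9 in other high bins and 7 in all bins. A promoter was called island-like when those bases were at least 50% G and C with an observed-to-expected CG ratio of at least 0.6, as 55.3% were in members, 32.9% in other high bins and 34.1% in all. It was also seen at like DMSO level: from 6 to 8 after DMSO, 45.1% of 419 members high before treatment had a start against 30.2% of 1525 other high bins, and from 8 to 10 it was 44.7% of 421 against 31.8% of 302.

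CpG-rich starts also drew relatively more inhibitor reads where H3K27me3 was low. In 4332 bins with an island-like start and no H3K27me3 peak, the median relative level was 0.301 and 0.305 after DMSO and 1.26 and 1.27 after the inhibitor. In 7401 bins with other starts and no peak it was 0.382 and 0.385, then 0.505 and 0.564. Of the former 4 were members and of the latter 3. The medians went the other way for both kinds of start in bins counted as in an H3K27me3 peak. With an island-like start (2390 bins) the median there was 4.03 and 4.10 after DMSO and 2.52 and 2.40 after the inhibitor. With other starts (5994 bins) it was 2.56 and 2.56, then 1.77 and 1.69. Members were 518 and 277 of these bins in that order. The part of CpG content in the levels of the members was not tested.

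Developmental regulators were frequent among the genes touched. Of 226 autosomal genes in 18 families of developmental transcription factors and signals, 129 (57.1%) had a span overlapping a member, against 1374 of 20665 protein-coding genes (6.65%). Of those with a bin high before treatment, the shares were 127 of 165 (77.0%) and 1219 of 2874 (42.4%). The families were named by symbol and are known Polycomb targets, and a long gene touches more bins (a median of 2 bins for the families and 3 for all coding genes). The families also stood higher after DMSO, and the share of members rose with that level. By each gene's highest bin the median relative DMSO level was 9.06 over all family genes and 1.16 over all coding genes. The shares were not compared at like DMSO level, so the part of that level in them was not tested.

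All 8 Lhx genes (LIM homeobox factors), all 5 autosomal Gata genes and all 3 Pou3f genes were touched, as were 17 of 19 Wnt genes, which encode secreted signals, and 7 of 9 Pax genes. Lhx5 had 61.6 and 95.8 after the inhibitor and 19.6 and 17.2 after DMSO. Wnt7b had 36.1 and 52.5, then 12.9 and 12.2 in that order, Gata6, an endoderm factor, 24.2 and 30.1, then 10.6 and 10.4, and Pax6, an eye and brain factor, 13.6 and 22.0, then 10.6 and 11.2. The genes given with values here were picked after those were seen. Relative levels were higher after the inhibitor in these 4, but not in every gene touched. In each gene's highest member bin, both inhibitor values lay above both DMSO values in 3 of 5 Gata and 9 of 17 Wnt genes. The same held for 8 of 8 Lhx and 7 of 7 Pax genes, and for 26.9% of all bins. The rule used the inhibitor levels, so nothing is read from these counts. Both values lay below in 1 Gata and 1 Wnt gene, and the rest overlapped. Gata3, a T cell and neural factor, had 6.56 and 7.05 after the inhibitor and 12.3 and 12.1 after DMSO, and Wnt10a 4.54 and 4.23, then 9.004 and 8.77.

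Hox genes were less uniform: 22 of 39 were touched, though 36 had a high bin before treatment. The Hoxd13 bin had 13.4 and 27.5 after the inhibitor and 8.46 and 9.10 after DMSO, and belonged to a run of 5 adjacent members from Evx2 to Hoxd9 (chr2:74650001-74700000). In the same run the Hoxd9 bin had 4.04 and 7.20 after the inhibitor and 12.1 and 11.3 after DMSO, so the order of inhibitor and DMSO was not shared along the run. By each gene's highest member bin, both inhibitor values lay above both DMSO values in 4 of 22 Hox genes and below in 10. Genes that share a bin were each counted. Over all 18 families together it was 79 above and 22 below of 129 genes, and over all bins 26.9% and 30.5%. The Hoxa11 bin had 2.78 and 16.8 after the inhibitor and 12.5 and 13.4 after DMSO, high in only 1 inhibitor library. Of 20 Fgf growth factor genes 3 were touched, and of 12 T-box genes 5. Sox17, an endoderm factor, missed narrowly with 4.80 and 3.39.

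The other lists are read against all coding genes, 6.65% of which were touched, and against how many of their genes had a bin high before treatment. None of 11 PRC2 subunit genes, 58 replication-dependent histone genes or 1467 olfactory and vomeronasal receptor genes was touched, but only 1, 0 and 5 of them in that order had such a bin. Of 10 naive pluripotency genes only Esrrb had one, and it was the 1 touched, with 8.33 and 13.0 after the inhibitor and 8.55 and 9.69 after DMSO. The zinc finger list gave 13 of 423 (3.07%), and 10 of the 29 with a bin high before treatment (34.5%, against 42.4% of such coding genes). A list of 3 ribosomal RNA and satellite related genes also gave none, but not for want of inhibitor reads: the median of their highest bins was 78.2 after DMSO and 702 after the inhibitor, above any member, and the bins above every member were those removed by the limits on the other marks. Of 16 imprinted genes 6 were touched (Cdkn1c, Dlk1, Gnas, Grb10, H19 and Igf2), the same 6 that had a high bin before treatment. Igf2, a growth factor, had 53.3 and 74.5 after the inhibitor and 11.7 and 11.4 after DMSO, and Gnas, which encodes a G protein subunit, 31.6 and 52.3 against 6.85 and 7.01.

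**Figure D5:**
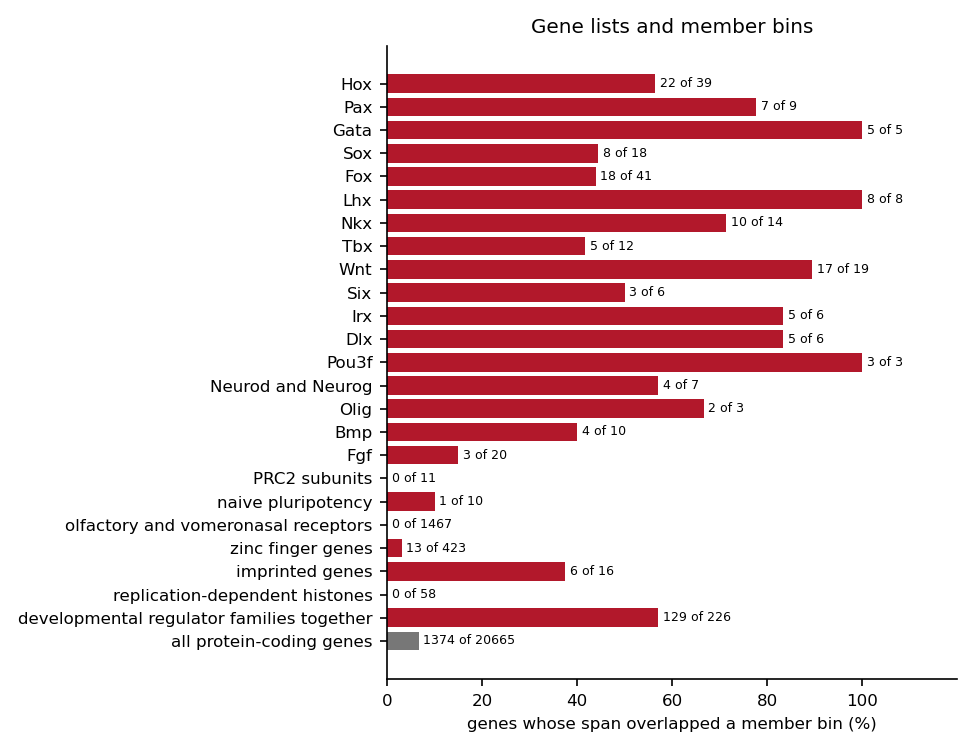
Percent of the autosomal genes of each list whose span overlapped a member bin (bars from 0), with the counts beside each bar; the grey bar is all protein-coding genes. The developmental families range from 3 of 20 (Fgf) to all of 8 (Lhx), against 6.65% of coding genes, and 3 of the lists drawn stand at 0.

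Most runs of adjacent members were short. Members formed 1390 runs of adjacent bins, 1104 of them a single bin, 235 of 2 bins and 36 of 3. How far this departs from scattered bins was not tested. The longest ran over 7 bins (chr7:143400001-143470000) at the imprinted Kcnq1 and Cdkn1c genes, the latter an inhibitor of the cell cycle. Its bins had mean relative levels of 5.71 to 24.2 after the inhibitor and 8.71 to 13.2 after DMSO, highest after the inhibitor in a bin that overlapped no gene. By chromosome the share of bins ran from 0.272% on chromosome 14 to 1.47% on chromosome 5. As a share of the bins high before treatment it ran from 15.9% on chromosome 8 to 29.6% on chromosome 17.

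The other marks of untreated cells bear on the members without having chosen them, except for the ceiling on H3K27me1 and H3K36me2. Untreated H3K27me3 was compared with H3K27me2, the state 1 methyl group lower that PRC2 also makes, by limma on log2(relative level + 0.25), with Benjamini-Hochberg adjusted p under 0.05 as the call. H3K27me3 was the higher in 1686 of 1748 members and the lower in 43, against 21.4% and 54.4% of all 236661 bins tested. Most of this was settled beforehand, so the count adds no support. Of the members, 1517 were at or above 4 in all 4 untreated and DMSO H3K27me3 libraries. Untreated H3K27me2 reached 4 in only 67 and 37 of all 246266 bins in its 2 libraries. The excess was also not particular to members. Other high bins, chosen for their H3K27me3, had median relative levels of 5.25 ± 0.147 for H3K27me3 and 1.27 ± 0.0588 for H3K27me2 (SD, n = 2). With each library divided by its median in place of its mean, all bins split 93434 higher to 69988 lower in place of 50622 to 128657, and members 1704 to 24. The median log2 difference over members was 2.64, against -0.43 over all bins. In the Uncx bin it was 5.04 ± 0.155 (SE, limma adjusted p = 1.57e-21), from H3K27me2 of 0.241 and 0.168, and in the Kcnk9 bin 3.21 ± 0.154 (adjusted p = 1.22e-17), from 0.673 and 0.612. Both bins were named for their H3K27me3 level after the inhibitor, and these p-values rest on 2 against 2 libraries of different antibodies.

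The next values rank the members by the inhibitor level that chose them and are a description only. Ranked by level after the inhibitor and cut into 4 sets of 437 bins, the lowest set had median H3K27me2 of 1.30 and 1.29 and the highest 0.626 and 0.620. Across members the Spearman correlations with the inhibitor level were -0.45 and -0.51 (n = 1748 bins). Over the same sets the share of bins with a start went from 35.7% to 58.1%. Other high bins, with a median H3K27me2 of 1.27 ± 0.0588 (SD, n = 2), also had the higher median at like DMSO level: 1.25 from 6 to 8, against 0.941 in the 419 members of that band that were high before treatment. In the authors' peak sets, 25.3% of members were covered to 50% or more by an H3K27me2 peak, against 49.6% of other high bins and 30.7% of all. For H3K27me3 peaks the shares were 94.5%, 99.9% and 23.1%.

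Against untreated H3K36me3, H3K27me3 was the higher by the same test in 1665 members and the lower in 57, against 55.7% and 27.4% of the 233654 bins tested, with a median log2 difference of 2.28 over members and 0.52 over all bins. Other high bins shared this excess, with a median H3K36me3 of 1.25 ± 0.0768 against 5.25 ± 0.147 for H3K27me3 (SD, n = 2). As with H3K27me2, most members were already high in H3K27me3, so this count adds no support. A small group is described apart, picked for its low H3K27me3 before treatment. Of the members, 19 were under 1 in all 4 untreated and DMSO H3K27me3 libraries, and none of these lay in an H3K27me3 peak. Their median untreated H3K36me3 was 5.66 and 6.41, against 1.26 and 1.38 over all members, and 11 of the 19 were at or above 4 in both libraries, against 3.60% of all members and 4.62% of all bins. Their median untreated H3K27me1 was 3.16 and 2.47, against 0.790 and 0.624 over all members. The 5 lowest after DMSO were bins within Trak1, Ezr and Lasp1, at the start of Zmynd8, and 1 on chromosome 10 with no gene. The Trak1 bin (chr9:121320001-121330000, a gene of mitochondrial transport) had 5.05 and 8.18 after the inhibitor from only 20 and 58 reads, 0.197 and 0.143 after DMSO, and H3K36me3 of 5.90 and 7.92. The Ezr bin (chr17:6740001-6750000, a membrane linker protein) had 5.30 and 4.09 from 21 and 29 reads, and H3K36me3 of 10.0 and 12.6. The 2 bins met the rule with few reads and with H3K27me3 below the library mean before treatment. The 19 as a group were not without the mark. Their median relative H3K27me3 after DMSO was 0.718 and 0.636, against 0.521 and 0.520 over all bins.

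H3K36me2 after the inhibitor was not used by the rule, and no member passed the test for a change in it on the deposited scale in the fit without a replicate term. Members stood above average for this mark in treated cells, with median relative levels of 1.87 and 1.93 after DMSO and 1.69 and 1.89 after the inhibitor, where other high bins had 2.25 ± 0.0184 and 2.27 ± 0.0912 in that order (SD of 2 library medians). Limma on log2(deposited linear mean + 1) called 0 of 1748 members, where 1 of 237545 bins tested was called (higher, 0.000421%). No member had an unadjusted p under 0.05 in that fit either, against 12202 of all bins. With the replicate number as a block, which no label backs, 94 members were called higher (5.38%, against 33.5% of all bins). In that blocked fit 4 were called lower (0.229%, against 0.147%). The median log2 change was 0.12 over members and 0.29 over all bins. The 2 DMSO libraries differed on this scale (340 and 225 units on average), as did the 2 inhibitor libraries (425 and 238). Both spreads are larger than the change between the group means. With 2 against 2 libraries an exact permutation test of a single value cannot go below p = 0.333.

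Relative to each library's own mean, which shifts the median change over all bins from 0.29 to 0.06, limma called 11 members higher and 46 lower, where it called 12.0% of all bins higher and 0.483% lower. The members' share called lower was 2.63%. Limma-voom on the recovered reads called 2 members higher and 134 lower, against 5.02% and 3.42% of all bins. Counting only order, both inhibitor libraries were below both DMSO libraries in 634 members (36.3%, against 21.0% of all bins) and above both in 263 (15.0%, against 40.0%). In other high bins the shares were 28.2% below and 28.4% above. Nkx1-1 had H3K36me2 of 1.36 and 1.52 after DMSO and 0.646 and 0.856 after the inhibitor, a log2 change of -0.76 ± 0.122 (SE, limma adjusted p = 0.0249). Skor1 changed by -0.66 ± 0.120 (adjusted p = 0.0249) and Grb10 by -0.50 ± 0.103 (adjusted p = 0.0273). None of these calls was made on the deposited scale in the fit without a replicate term.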

How the data were processed

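Chromatin immunoprecipitation sequencing was available for 18 libraries in 9 groups of 2, grouped from the labels. Reads were handled with Trim Galore 0.4.2, Bowtie2 2.2.6.2 and SICER on mm10 and dm3, per the submitters' processing notes. The authors deposited each track as log2 values, 1 per window of 1 kb, with a new window each 500 bp; all values were log2(1 + a whole read number times 1 step per library), so reads were recovered. The step scaled untreated libraries to their own read total (RPM) and was taken as a spike-in factor in the others; its derivation is not given in the sources used here. The authors' deposited peak lists carry a score of unstated scale, by which peaks were split at the median within 1 list. No input library was used, so no background was subtracted.

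Non-overlapping windows were averaged in 10 kb bins on the linear scale. Reads over window edges count in each window, and window reads are not independent molecules. Bins with reads in all 4 libraries were fitted with limma 3.58.1 in R 4.3.3 (2 against 2 libraries, no covariate, Benjamini-Hochberg adjusted p under 0.05; pseudocount 1 on the deposited scale, 0.25 on the relative scale), after the fits were tested on simulated data. Each simulated library was divided by its own mean, so the spread between libraries on the deposited scale was not simulated. Negative binomial count models were not used, as no raw read table was among the files. Bins count as in a peak when 50% covered. Named bins were the 10 highest after the inhibitor, the 5 highest and 5 lowest after DMSO, the longest run, and 3 on each side of the threshold; other listed genes were chosen after their values were seen. The members and gene lists were chosen with earlier results of these data known. Gene spans and promoter sequences came from RefSeq (GRCm38.p6). Tables were made with Python 3.11.15, numpy 2.4.6 and pandas 2.3.3. Alternatives were the fold threshold, bin grid, bin summary, exclusion marks, libraries left out, scale, pseudocount, low-value filter, peak overlap and replicate number as a block.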

Additional observations from a re-analysis of the deposited data

How the results depend on the processing

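The number of members was 1748 and depended on the rule: 3087 at a threshold of 3 times the mean and 7036 with the median of the windows in a bin. In the latter, levels were divided by the library's mean of those bin medians, not by its autosomal mean. With 1 inhibitor library left out it was 2729 to 4670, that is, 2729 without library 1 and 4670 without library 2. A threshold of 5, bins shifted by 5 kb, further exclusion by H3K36me3 and H3K27me2 and no exclusion gave 1228, 1730, 1668 and 1851. Over the alternatives other than the window median, the members' median level ranged from 5.43 to 9.19 for H3K27me3 after DMSO and from 0.783 to 1.38 for untreated H3K27me2, the 5.43 and 1.38 both without inhibitor library 2; with the window median these were 4.12 and 1.55. The share of members in H3K27me3 peaks (94.5%) was 98.7% at any overlap and 81.4% at 90% overlap.

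H3K36me2 on the deposited scale gave 1 called bin of all tested. The count was 8 with a pseudocount of 0.1, 0 with a pseudocount of 10, without the low-value filter, with at least 10 reads in every library and on shifted bins, 29701 on the library-mean scale and 20062 by limma-voom. With 1 library left out it was 0 to 91; the group left with 1 library is then assumed to vary like the other. Members called stayed at 0 in all of these except the library-mean scale and limma-voom. Replicate numbers do not pair the libraries by any label, and deviations of same-numbered libraries correlated at 0.44 for H3K36me2. With the replicate block 80002 bins were called, 79652 higher (33.5% of all tested) and 350 lower (0.147%), and of the members 94 higher (5.38%) and 4 lower (0.229%). For the untreated comparisons the replicate block gave 186741 calls in place of 179279 against H3K27me2 (correlation 0.20), and 189925 in place of 194297 against H3K36me3 (correlation -0.19); crossing the numbers there, chosen after seeing the data, gave 199735. In these 2 comparisons every alternative stayed within 1.5 times the total count. The split by direction was less stable. Against H3K27me2 with the library median as scale, 93434 bins were called higher and 69988 lower, in place of 50622 and 128657. Depth limits the inhibitor libraries most: at the threshold a bin holds 16 and 29 reads.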

Other observations

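On chromosome X, which the selection did not cover, 14 of 17103 bins met the same conditions relative to the autosomal mean. The bin at the start of Irs4, an adaptor of insulin receptor signalling, had 21.0 and 29.9 after the inhibitor, 5.32 and 4.90 after DMSO and 3.12 and 3.11 untreated. The bin at the start of Gpr50 had 10.6 and 10.9, then 5.19 and 5.40. The bin at the start of Asmt, near the end of the chromosome, differed from these, with 4.04 and 15.2 after the inhibitor but 0.313 and 0.511 after DMSO.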
